A study of Mus musculus with 3 samples.

Results

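The genes described here encode Aurora kinase A and Aurora kinase B with their direct partners: Aurka, Tpx2 and Bora on the Aurora A side, and Aurkb, Incenp, Birc5 and Cdca8, which encode the chromosomal passenger complex. They were taken by gene symbol from the deposited table, in which all 7 were found, each once, among 46078 genes. No measured value entered their choice by that rule, although the group was proposed with earlier results of these data known. RNA was measured by paired-end sequencing in RAW 264.7, a mouse macrophage line derived from an Abelson virus-induced tumor, with 1 library for each of 3 conditions. All 3 cultures, the control included, are listed at 12 hours. The first is labelled as control and a further culture received 0.5 mM hydroxyurea (HU). The last received the same HU dose and gold nanocages at once. All are the same line in the same serum medium, so no condition carries a genetic change that another lacks. No source used here gives the dose of the nanocages or the vehicle of the controls, and a library of nanocages without HU was not analysed here. Each condition is 1 culture of 1 line, so no difference below has a replicate check and no p-value was computed.

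Aurora kinases are serine/threonine kinases that peak in abundance as cells enter mitosis. Aurora A sits at centrosomes and spindle poles, where TPX2 holds it in its active form on spindle microtubules, and BORA helps it to phosphorylate Polo-like kinase 1 before mitotic entry. Aurora B is the kinase of the chromosomal passenger complex, in which INCENP is the scaffold and activator, and survivin (Birc5) and borealin (Cdca8) bring the complex to centromeres and later to the spindle midzone. HU inhibits ribonucleotide reductase, and cells given it stall in DNA replication before they reach mitosis.

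The libraries held 14990564 (control), 20057329 (HU) and 18644333 (HU with nanocages) reads assigned to genes, and between 10801 and 10909 genes reached 1 FPKM, fragments per kilobase of exon scaled to the reads of the library. All 8 macrophage markers listed for the check of the line reached 1 FPKM, with a summed level between 2307 and 2513 FPKM. None of 23 markers of fibroblasts, T cells, B cells, neutrophils and mast cells, or endothelium and epithelium reached it. Of those 23, 16 had no reads in any library, and their summed level lay between 0.350 and 0.520 FPKM. Counting intervals below are exact 95% intervals from the read counts. They cover counting error only, since each condition has 1 library. The reads carry no molecular identifiers, so the intervals treat each counted read as independent. In bulk RNA, fewer cells in G2 or mitosis and less RNA per cell cannot be told apart.

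All 7 genes lie on autosomes and are annotated as protein-coding. On mm10, per GENCODE M21, Aurka lies on chromosome 2 at 172356190 to 172370535 and Tpx2 on the same chromosome at 152847964 to 152895321. Bora lies on chromosome 14 at 99046222 to 99074540. Aurkb and Birc5 share chromosome 11, at 69045647 to 69051664 and at 117849251 to 117855743. Incenp lies on chromosome 19 at 9872296 to 9899551 and Cdca8 on chromosome 4 at 124918465 to 124939311. The deposited annotation gives all 7 the terms cell cycle, cell division and mitotic nuclear division. The term chromosome passenger complex is given to 5 genes of the table, Aurka, Aurkb, Aurkc, Birc5 and Cdca8, and thus not to Incenp.

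Promoter windows of 300 bases, from 250 before to 50 after the start of the gene, were given by RefSeq (build GRCm38.p6) for 3 of the 7 genes and are shown because promoters of many mitotic genes pair CCAAT boxes with a cell cycle genes homology region at the start. Capitals mark exact matches on either strand to CCAAT, which the printed strand reads as ATTGG where the match lies on the other one, and to the letters of the homology region, which are TTTGAA and in a variant form TTCGAA. The windows are chr2:172370521-172370820 on the minus strand for Aurka, chr4:124936868-124937167 on the minus strand for Cdca8, and chr11:117848987-117849286 on the plus strand for Birc5, each printed from 5′ to 3′ along its gene. The RefSeq start used for Cdca8 lies 2394 bases inside the GENCODE bounds of the gene given above, so the window covers 1 of its annotated starts, whereas the RefSeq and GENCODE starts of Aurka and Birc5 differ by 35 and 14 bases. Which start these cells use was not measured.
Aurka: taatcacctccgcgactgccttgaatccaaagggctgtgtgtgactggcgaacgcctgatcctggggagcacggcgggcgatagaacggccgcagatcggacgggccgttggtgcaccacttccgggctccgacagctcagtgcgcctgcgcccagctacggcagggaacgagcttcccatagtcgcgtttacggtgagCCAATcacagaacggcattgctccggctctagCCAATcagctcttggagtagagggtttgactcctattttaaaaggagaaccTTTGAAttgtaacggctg
Cdca8: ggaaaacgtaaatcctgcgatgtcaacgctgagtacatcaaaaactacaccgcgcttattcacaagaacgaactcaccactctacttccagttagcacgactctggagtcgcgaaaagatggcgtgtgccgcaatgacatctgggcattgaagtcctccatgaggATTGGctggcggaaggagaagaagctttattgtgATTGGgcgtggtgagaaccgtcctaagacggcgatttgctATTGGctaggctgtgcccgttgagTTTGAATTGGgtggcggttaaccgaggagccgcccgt
Birc5: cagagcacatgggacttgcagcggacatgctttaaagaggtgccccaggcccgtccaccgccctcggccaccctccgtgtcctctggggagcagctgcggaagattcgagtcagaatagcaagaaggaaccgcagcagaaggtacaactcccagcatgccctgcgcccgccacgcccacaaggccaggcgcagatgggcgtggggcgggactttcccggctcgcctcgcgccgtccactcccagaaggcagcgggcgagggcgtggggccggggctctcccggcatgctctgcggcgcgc

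Positions count from 1 at the start of the gene. The Aurka window holds CCAAT beginning 51 and 19 bases before the start, and TTTGAA beginning at base 33 after it. The GENCODE start of Cstf1, 145 bases from Aurka on the opposite strand, also lies in this window. Both CCAAT matches lie between the starts of these genes, and position alone does not assign them to either gene. The Cdca8 window holds CCAAT on the other strand at 4 places, beginning 85, 51 and 11 bases before the start and at base 19 after it, and TTTGAA at base 14, whose last base is shared with the CCAAT match at base 19. The Birc5 window holds none of these letters, which says only that they are not in this window. Neither of the E2F-type motifs searched on both strands (TTTCCCGC, and with GG in place of its first CC TTTGGCGC) occurs in the 3 windows. Among all 32851 windows of that length, 37.4% hold CCAAT, 19.2% hold either form of the homology region, 7.52% hold both kinds, 2.31% hold the homology letters with at least 2 CCAAT matches, and 1.56% hold an E2F-type motif. A match is a description of the sequence and not evidence of a bound site.

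In control cells all 7 genes were well expressed, and their order by FPKM was Incenp, Aurka, Tpx2, Aurkb, Bora, Birc5 and Cdca8. Incenp stood at 83.01 FPKM, Aurka at 70.13 and Cdca8, the lowest, at 30.04. Each gene rests on at least 1436 control reads. Each gene exceeded the next in this order beyond counting error, the closest pairs being Bora over Birc5 (1.10-fold, exact interval 1.02 to 1.18) and Birc5 over Cdca8 (1.09-fold, 1.02 to 1.16). The order rests on the deposited exonic gene sizes, from 2531 bases (Aurka) to 5177 (Cdca8), whose fit to the transcripts present the intervals do not cover. By control reads without that scaling, Cdca8 (2331) stood above Aurkb (2012), Birc5 (1666) and Bora (1436). In HU the order became Incenp, Aurkb, Tpx2, Aurka, Birc5, Cdca8 and Bora. Aurka thus moved from above Aurkb to below it, and each gene again exceeded the next beyond counting error. With nanocages the order was that of HU, and Cdca8 over Bora, at 1.07-fold, was the only step whose interval included 1 (0.982 to 1.16). Together the 7 genes stood at 1236 CPM (counts scaled to the summed count of the library) in control, 749 in HU and 753 with nanocages.

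**Figure D1:**
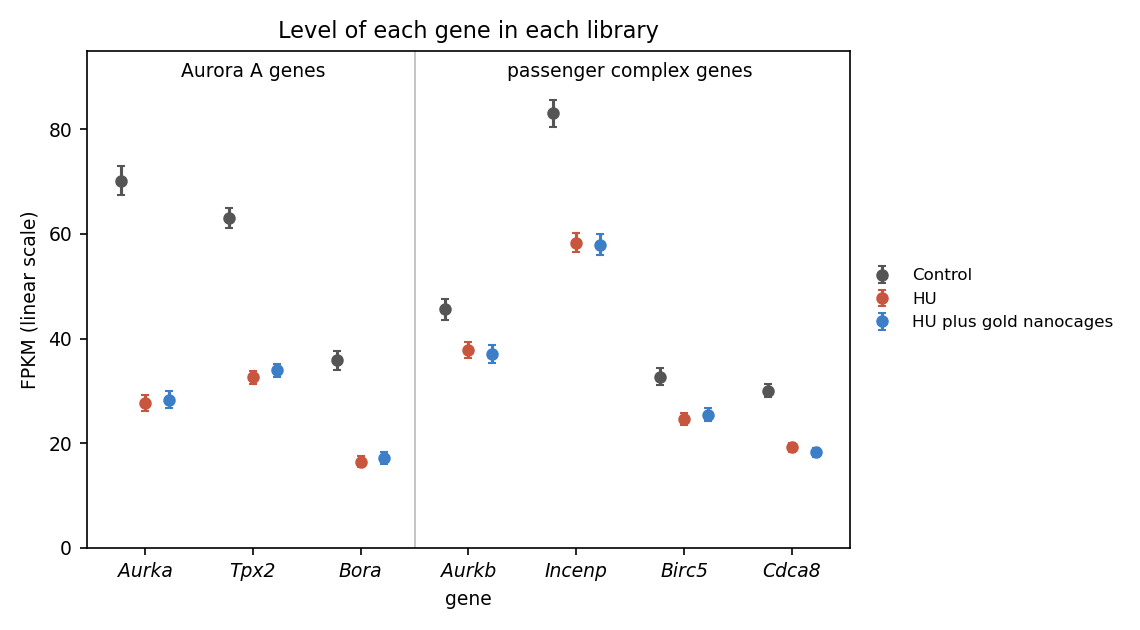
Level of each of the 7 genes in FPKM (linear axis from 0) in the control library, the HU library and the library of HU with nanocages; bars are exact 95% counting intervals. The control point is the highest for every gene, with the widest gap for Aurka (70.13 against 27.68 and 28.33 FPKM), and the points of both HU libraries lie close together.

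HU against control asks what replication stress does to these transcripts. All 7 were lower in HU, and the genes of the Aurora A side were lower by more than those of the passenger complex. The 3 Aurora A genes were 1.94-fold to 2.53-fold lower, and the 4 passenger complex genes 1.21-fold to 1.56-fold lower. Folds are plain ratios of CPM. The counting interval lay below 1 for 7 of 7 and above it for none, beside 20.1% and 18.7% of the 10849 genes with a mean of at least 1 FPKM over the libraries. The median log2 ratio of the 7 was -0.64, beside -0.008 over all those genes. Of the 7, Aurka and Bora were at least 2-fold lower, beside 1.10% of all genes, and none was 2-fold higher, beside 2.03%.

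Aurka, the centrosomal kinase, had 70.13 FPKM in control, 27.68 in HU and 28.33 with nanocages. Control was the only high library, and the intervals of the other 2 overlapped. The ratio of HU to control was 2.53-fold lower (counting interval 2.37 to 2.71), which placed Aurka as the 70th lowest ratio of 10849 genes.

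Bora, the cofactor through which Aurora A activates Polo-like kinase 1, had 35.84, 16.47 and 17.14 FPKM in the same order. It was 2.18-fold lower in HU (2.00 to 2.37), the 94th lowest ratio. Both HU libraries were again well below control.

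Tpx2, the spindle protein that activates Aurora A, had 63.09, 32.59 and 33.96 FPKM. It was 1.94-fold lower in HU (1.85 to 2.03), the 127th lowest ratio, and so sat just outside the 2-fold line, with an interval that crosses it.

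Cdca8, which encodes borealin, was lowered most among the passenger complex genes, at 30.04 FPKM in control, 19.26 in HU and 18.27 with nanocages. It was 1.56-fold lower in HU (1.47 to 1.66). A gene on the opposite strand, 9930104L06Rik, overlaps the Cdca8 gene by 2264 bases, and without a known strand setting their shared reads cannot be told apart; it had 365, 417 and 397 reads against 2331, 2000 and 1763 for Cdca8.

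Incenp, the scaffold, had 83.01, 58.32 and 57.94 FPKM and was 1.42-fold lower in HU (1.36 to 1.49). Birc5, which encodes survivin, had 32.67, 24.56 and 25.43 FPKM and was 1.33-fold lower (1.24 to 1.42). Aurkb, the kinase of the complex, had the smallest difference of the 7, at 45.56, 37.74 and 37.03 FPKM, and was 1.21-fold lower (1.14 to 1.28). Its ratio was the 1216th lowest of 10849, far from those of the Aurora A genes. For each of these genes control was the high library and the intervals of both HU libraries overlapped.

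**Figure D2:**
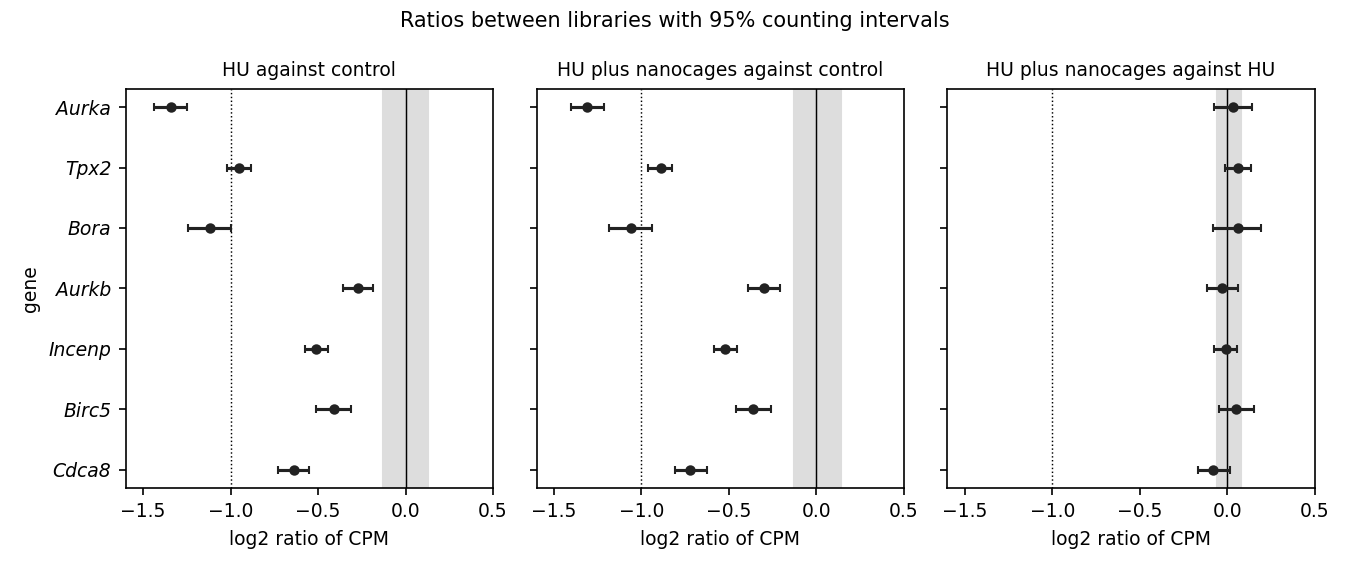
Log2 ratio of CPM for each gene (horizontal axis) in the 3 comparisons, with exact 95% counting intervals; the grey band holds the middle 50% of all genes tested and the dotted line marks 2-fold lower. All 7 genes lie left of the band against control, from -0.27 (Aurkb) to -1.34 (Aurka) in HU, and around 0 between the HU libraries.

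Because the genes were lowered by different factors, the balance between partners differed between libraries. The FPKM ratio of Aurkb to Aurka was 0.650 in control, 1.36 in HU and 1.31 with nanocages. It changed 2.10-fold between control and HU (exact conditional counting interval 1.92 to 2.30), which is the widest change of the 6 ratios examined. Tpx2 over Aurka went from 0.899 to 1.18 in HU, a change of 1.31-fold (1.21 to 1.42), and Bora over Aurka from 0.511 to 0.595 (1.16-fold, 1.05 to 1.30). The kinase transcript was thus lowered more than the transcripts of both its activators.

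Within the passenger complex it was the kinase that kept the most of its control level. Incenp over Aurkb was 1.82 in control and 1.55 in HU, a ratio of 0.848 between libraries (0.786 to 0.915). Cdca8 over Aurkb was 0.659 and 0.510 (0.774, 0.710 to 0.843). Birc5 over Aurkb was 0.717 and 0.651 (0.908, 0.828 to 0.995), and with nanocages it was 0.687, with an interval against control that included 1 (0.958, 0.872 to 1.05). FPKM ratios compare transcripts per length and do not give the number of proteins in a complex.

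**Figure D3:**
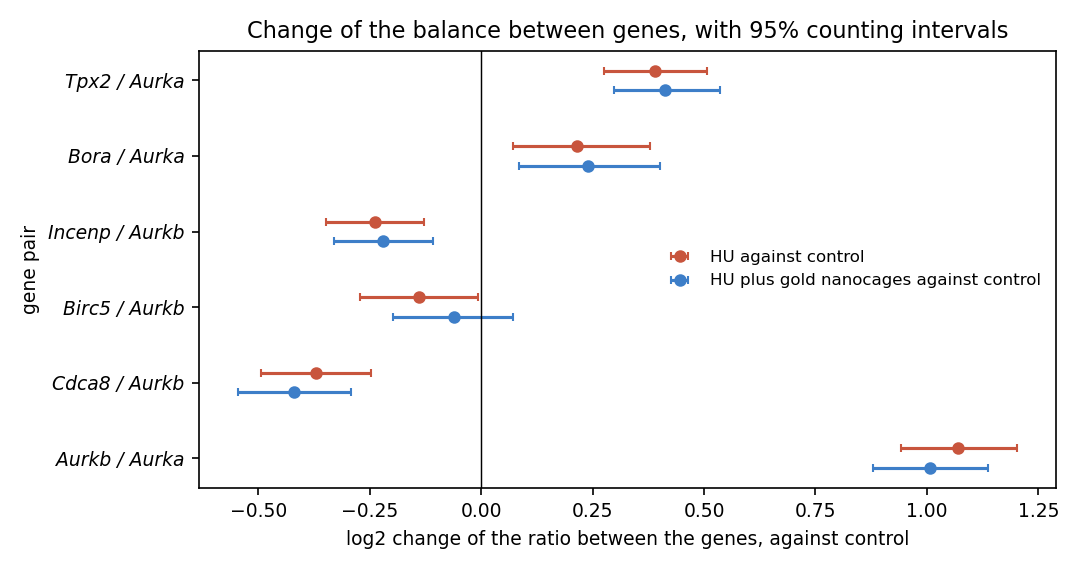
Log2 change against control of the ratio between 2 genes, for 6 pairs (vertical axis), without (HU) and with nanocages, with exact 95% conditional counting intervals. Aurkb over Aurka lies furthest right, at a 2.10-fold change in HU and 2.01-fold with nanocages, and the 3 partners over Aurkb lie to the left of 0.

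HU plus gold nanocages against HU asks whether nanocages given with the drug change these transcripts. None of the 7 ratios lay outside counting error, at 0.948-fold (Cdca8) to 1.04-fold (Tpx2, Bora and Birc5), beside 7.78% of all genes with an interval below 1 and 8.35% with one above. Tpx2 was at 1.04-fold (0.990 to 1.10), Aurka at 1.02-fold (0.949 to 1.10) and Bora at 1.04-fold (0.946 to 1.14). Incenp was at 0.993-fold (0.948 to 1.04), Aurkb at 0.981-fold (0.924 to 1.04), Birc5 at 1.04-fold (0.966 to 1.11) and Cdca8 at 0.948-fold (0.889 to 1.01). No gene was 2-fold apart, beside 0.664% of all genes at least 2-fold lower and 0.562% higher. Differences within these intervals were not detectable at this depth. The median log2 ratio of the 7 was 0.03, beside 0.004 over all genes tested. The balance between partners was within counting error as well, with Aurkb over Aurka at 0.959 of its HU value (0.870 to 1.06).

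HU plus gold nanocages against control gives each gene its own value beside that of HU alone, with the same control library in both comparisons. Aurka was 2.48-fold lower (2.32 to 2.65), Bora 2.09-fold lower (1.92 to 2.28) and Tpx2 1.86-fold lower (1.77 to 1.95). Cdca8 was 1.64-fold lower (1.55 to 1.75), Incenp at 0.698 of control (0.667 to 0.731), Birc5 1.28-fold lower (1.20 to 1.38) and Aurkb 1.23-fold lower (1.16 to 1.31). All 7 intervals lay below 1 and none above it, beside 20.1% and 19.6% of all genes. Aurka and Bora were at least 2-fold lower and no member 2-fold higher, beside 1.20% and 2.08%. With the nanocages present, the 3 Aurora A genes were again lower by larger factors than the 4 passenger complex genes.

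Genes that work with Aurora A were mostly lower in HU. Of 16 listed partners, 14 had a mean of at least 1 FPKM, with 11 intervals below 1 and 3 above it, beside 20.1% and 18.7% of all genes, and their median log2 ratio was -0.48. The 3 above were Ndel1 (1.14-fold), Lats2 (1.20-fold) and Tacc1 (1.05-fold), and 3 genes were at least 2-fold lower, beside 1.10% of all genes. Plk1, the Polo-like kinase that Aurora A activates with BORA, had 64.56, 13.01 and 13.24 FPKM in the control, HU and nanocage libraries and was 4.96-fold lower in HU (4.52 to 5.45). Cdc25b, a phosphatase that activates CDK1, had 25.80, 11.35 and 11.09 FPKM and was 2.27-fold lower (2.09 to 2.48). Kif11, the motor that separates spindle poles, had 39.04, 18.41 and 20.40 FPKM and was 2.12-fold lower (2.00 to 2.25). With nanocages against HU, 12 of the 14 intervals included 1. Of the others, 0 lay below 1 and 2 above, beside 7.78% and 8.35% of all genes. The 2 above were Kif11 at 1.11-fold (1.04 to 1.18) and the microtubule polymerase gene Ckap5 at 1.08-fold (1.03 to 1.14). Ajuba and Nedd9, which encode activators of Aurora A, stayed at or below 0.50 FPKM.

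Genes that place the passenger complex on chromosomes, or move it off them, were mostly lower in HU. Of 16 listed, 15 were measured, with 11 intervals below 1 and 1 above, beside 20.1% and 18.7% of all genes, and a median of -0.30. The shugoshin genes Sgol1 and Sgol2a, whose products guard centromeric cohesion and help to recruit the complex, were among the lowest. Sgol2a had 3.47, 1.26 and 1.30 FPKM and was 2.76-fold lower in HU (2.30 to 3.32) on 365 against 177 reads. Sgol1 was at 9.14, 4.24 and 4.28 FPKM, and Ccnb1, the cyclin that drives CDK1, at 58.64, 26.52 and 25.27 FPKM (2.21-fold lower, 2.10 to 2.33). The kinases that write the histone marks read by the complex were lowered less: Gsg2, which encodes haspin, was 1.31-fold lower (1.17 to 1.47) and Bub1 1.23-fold lower (1.16 to 1.29). The single gene above counting error was Klhl21, whose product works with CUL3 to move Aurora B from chromosomes to the midzone. It had 10.61, 20.39 and 21.38 FPKM and was 1.92-fold higher in HU (1.75 to 2.11). Gsg2 and Klhl21, like the genes given below only by a fold without an interval, were singled out after their values were seen. With nanocages against HU, 1 of the 15 intervals lay below 1 and 4 above, beside 7.78% and 8.35% of all genes. Cul3 was at 1.09-fold (1.03 to 1.15), Bub1 at 1.08-fold (1.03 to 1.14) and Rcc1, the exchange factor of the GTPase RAN, at 0.915-fold (0.873 to 0.960). The others above were Usp9x and Xpo1, each at 1.06-fold.

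Genes for substrates of Aurora B were mostly lower too. Of 13 listed, 12 were measured, with 9 intervals below 1 and 2 above, beside 20.1% and 18.7% of all genes, and a median of -0.60. Kif2c, a microtubule depolymerase that Aurora B regulates at centromeres, had 24.16, 9.19 and 8.49 FPKM and was 2.63-fold lower in HU (2.41 to 2.87). Kif23, a motor of the spindle midzone, was 1.86-fold lower (1.76 to 1.95). The 2 above were Stmn1 (1.14-fold), which encodes the tubulin-binding protein stathmin, and Psrc1, which encodes a spindle protein. Psrc1 stood at 8.92, 17.24 and 17.41 FPKM and was 1.93-fold higher in HU (1.73 to 2.16). With nanocages against HU, 1 of the 12 intervals lay below 1 and 1 above, near the 7.78% and 8.35% among all genes. The 1 above was Ndc80, which encodes the kinetochore's microtubule-binding protein, at 1.13-fold of HU (1.02 to 1.26). The 1 below was Stmn1 at 0.900-fold (0.849 to 0.954).

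Genes for phosphatases that oppose Aurora kinases, listed with those for their subunits and regulators, were mostly near their control level. The list includes inhibitors of these phosphatases. All 20 listed were measured, with 5 intervals below 1, 2 above and 13 that included it, and a median of -0.03. These counts are near or under the 20.1% below and 18.7% above among all genes. The exception past 2-fold was Cdca2, which encodes the chromatin-bound PP1 partner Repo-Man and was 2.07-fold lower (1.91 to 2.23; 19.75, 9.56 and 9.70 FPKM). Ppp2r5d, a regulatory subunit of PP2A, was 1.49-fold higher (1.41 to 1.58), and Mastl, the kinase gene that restrains PP2A in mitosis, was 1.28-fold lower (1.11 to 1.49). The others outside counting error were Ppp2r5c (0.895-fold), Ppp2r5e (0.813-fold) and Ppp6r3 (0.858-fold) below, and Ensa (1.06-fold) above. With nanocages against HU, 1 of the 20 intervals lay below 1 and 2 above, near the 7.78% and 8.35% among all genes. The 2 above were Ppp2r5a at 1.11-fold (1.05 to 1.17) and Ppp1cb at 1.10-fold (1.04 to 1.16). The 1 below was Ensa at 0.948-fold (0.903 to 0.995).

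In the ubiquitin machinery that removes Aurora kinases and BORA, the largest differences were in Cdc20, Ube2c and Fzr1. Of 25 measured, 11 intervals lay below 1 and 4 above, beside 20.1% and 18.7% of all genes, with a median of -0.12. The 4 above were the subunit genes Anapc11 (1.11-fold), Anapc15 (1.23-fold), Anapc16 (1.15-fold) and Cul1 (1.09-fold). Cdc20, a mitotic activator of the anaphase-promoting complex, was 2.02-fold lower (1.91 to 2.14; 110.88, 54.93 and 54.10 FPKM). Ube2c, its ubiquitin-conjugating enzyme, was 1.83-fold lower (1.73 to 1.94). Fzr1, which encodes CDH1, the activator that targets Aurora A at mitotic exit, was 1.53-fold lower (1.43 to 1.63). None of the 25 lay outside counting error between HU with and without nanocages, beside 7.78% of all genes below and 8.35% above.

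Among 15 measured genes for factors that regulate G2 and mitotic genes, 4 intervals lay below 1 and 5 above, beside 20.1% and 18.7% of all genes, and the median was 0.09. Foxm1, an activator of mitotic genes, was 1.44-fold lower in HU (1.36 to 1.52; 32.13, 22.34 and 22.01 FPKM). Rbl2, which encodes the p130 subunit of the repressive DREAM complex, was 2.49-fold higher (2.22 to 2.79; 3.87, 9.63 and 9.58 FPKM). Nfyb, a subunit of the CCAAT-binding factor NF-Y, was 1.53-fold higher (1.36 to 1.72). The others above were Nfya (1.26-fold), Mybl2 (1.23-fold) and Tfdp1 (1.07-fold), and those below were Lin52 (0.708-fold), Tfdp2 (0.796-fold) and Lin9 (0.840-fold). Between the HU libraries 3 of the 15 intervals lay below 1 and 4 above, beside 7.78% and 8.35% of all genes. The largest differences were in Lin37, Lin52 and Tfdp2, which encode DREAM components or a partner of E2F. These were at 0.759-fold (0.630 to 0.912), 1.29-fold (1.09 to 1.53) and 1.20-fold (1.05 to 1.38), on between 201 and 454 reads. The others were Mybl2 and Rbbp4 below, and Nfyb and Tfdp1 above.

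**Figure D4:**
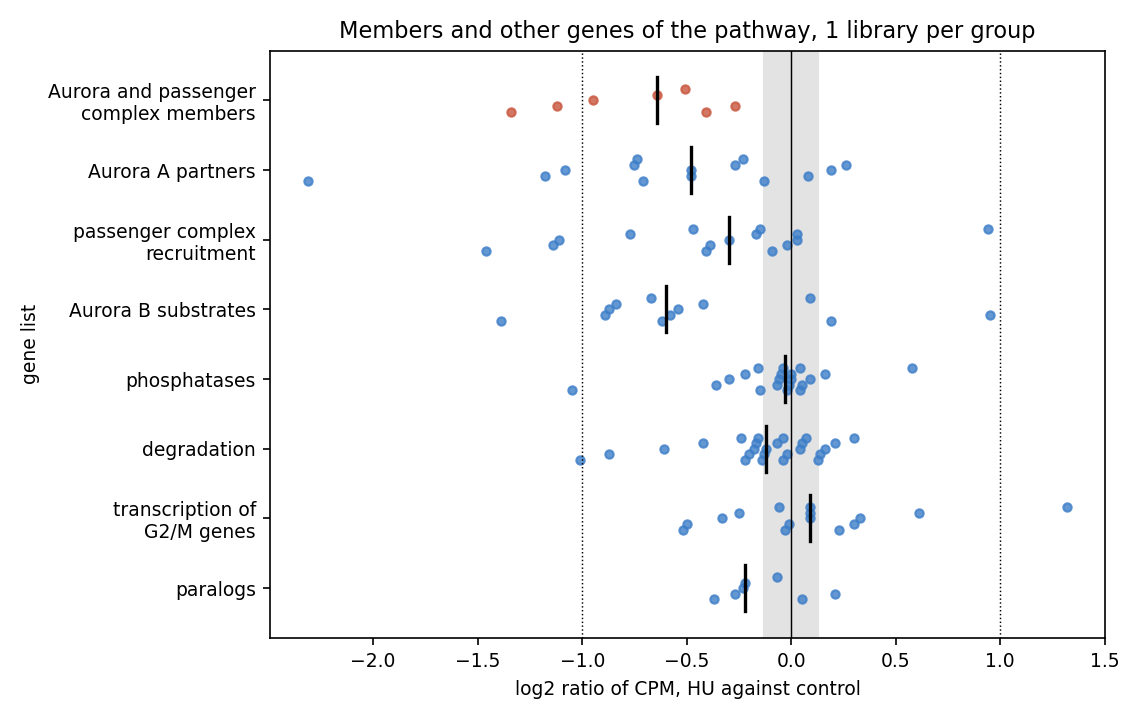
Log2 ratio of CPM in HU against control for the 7 members (red) and for the other genes of the pathway (blue), by list; each point is a gene, black bars are medians, the grey band holds the middle 50% of all genes tested and dotted lines mark 2-fold. The member median is -0.64, that of Aurora B substrates -0.60 and that of phosphatases with their regulators -0.03, and Plk1 is the lowest point.

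Among paralogs of the members, Aurkc, the germ cell relative of Aurkb, had no reads in any library, which allows up to 0.200, 0.150 and 0.161 CPM in the control, HU and nanocage libraries. Of the relatives of Birc5 that share its BIR domain, 7 of 8 were measured, with 4 intervals below 1 and 1, that of Birc6 (1.04-fold), above, beside 20.1% and 18.7% of all genes. Birc2 was at 0.859-fold. Birc3, an inhibitor of apoptosis, was 1.30-fold lower (1.21 to 1.39) and Xiap, an inhibitor of caspases, 1.21-fold lower (1.14 to 1.28), against 1.33-fold for Birc5. Naip2, an inflammasome sensor gene, was 1.18-fold lower (1.04 to 1.33). Naip5, a related sensor gene, was at 0.752-fold with nanocages against HU (0.571 to 0.988) on 93 against 133 reads. It was the 1 interval of the 7 below 1 in that comparison, with 0 above, beside 7.78% and 8.35% of all genes. The Naip genes are close copies of each other, so their reads are uncertain.

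The nearest neighbours of Aurka and Bora differed less from control in HU than those members did. Cstf1, which encodes an mRNA cleavage factor subunit, starts 145 bases from Aurka on the opposite strand and had 31.58, 29.67 and 30.19 FPKM, a ratio of 0.939 in HU (0.880 to 1.00) against 0.395 for Aurka (0.370 to 0.421). Mzt1, which encodes a subunit of the microtubule-nucleating gamma-tubulin complexes, lies 87 bases from Bora on the opposite strand and had 23.18, 20.97 and 20.87 FPKM, a ratio of 0.905 (0.822 to 0.996) against 0.460 for Bora (0.422 to 0.500). In both cases the intervals of the neighbour and the member do not overlap, although that of Mzt1 also lies below 1. Neighbours within 1000 bases were looked up after the member values were seen.

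The genes whose pair of log2 ratios to control lay nearest to that of Aurka, among 7736 genes with a mean of at least 5 FPKM, were Ckap2l (Euclidean distance 0.076), Troap (0.12) and Prc1 (0.13). Ckap2l was at 22.58, 8.53 and 8.86 FPKM in the control, HU and nanocage libraries. The nearest to Aurkb were Tor4a (0.0037), Cebpd (0.0054) and Cryzl1 (0.0062), at a level of ratio where many genes lie close together. Each distance rests on 3 libraries with a shared control.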

How the data were processed

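The deposited table gives, for each Ensembl gene and library, a whole-number read count made by the authors and not normalized, and an FPKM value that, per the file headers, is scaled by gene size and library. FPKM equals the count divided by exonic gene size and summed count within 0.006 for 100% of genes. The exonic gene size in bases is a further deposited column. The submitters' processing notes list cutadapt, HISAT2 2.0.1, HTSeq 0.6.1 and SAMtools 0.1.18, on mm10. No source used here names the annotation release or the strand setting.

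Ratios are plain CPM ratios with exact Clopper-Pearson 95% intervals, and changes of ratios between genes have exact conditional intervals (scipy 1.17.1). With 1 library per group no test between conditions was possible. Genes with mean FPKM of at least 1 form the background. One read stood for 0.0667, 0.0499 and 0.0536 CPM in the control, HU and nanocage libraries, and the limit for a gene without reads is 3 counts. The intervals were also run on simulated counts drawn with counting error only, which cannot show how far they miss variation between cultures. Members, lists and rules were chosen with earlier results of these data known. Named genes were the 7 members, up to 3 genes per list by absolute log2 ratio in HU against control, up to 3 per list outside counting error between the HU libraries, and the 3 genes nearest to Aurka and to Aurkb. Alternatives were TMM scaling (edgeR 4.0.16), median-of-ratios scaling (DESeq2 1.42.0), a total without mitochondrial and ribosomal RNA genes, pseudocounts of 1 and 5 FPKM, a 1.5-fold line and other gene filters. Coordinates came from GENCODE M21, which holds 98.0% of the table's identifiers.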

Additional observations from a re-analysis of the deposited data

How the results depend on the processing

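All 7 members stayed below control in HU under each of the 3 other scalings. A scaling moves every gene of a library by the same factor. Under these 3 the median log2 ratio of all genes in HU against control lay between -0.008 and -0.004. Shifts that small could not turn even the smallest member ratio, -0.27 for Aurkb, so the kept direction is no check. A pseudocount shrinks a ratio and cannot turn its direction, and a ratio whose interval includes 1 could not be called reversed. The absence of reversed calls is therefore no check for those values. Of 105 single-gene values, 97 stayed within the counting interval of the main setting. The 8 that left it were all at the pseudocount of 5 FPKM. With a pseudocount of 5 FPKM, which shrinks ratios of low genes, the member median against control became -0.53 in HU and -0.59 with nanocages, and 1 member, Aurka, was at least 2-fold lower in each, in place of 2. With a line of 1.5-fold, 4 members were lower in both comparisons with control, beside 3.12% of all genes for HU and 3.24% with nanocages. The share of all genes at least 2-fold apart either way, the background of these counts, moved more with the filter. In HU against control it was 3.12% in the main setting, 1.69% at a mean of 5 FPKM, 2.02% among protein-coding genes and 26.0% among all genes with a read in either library. With nanocages against HU it was 1.23%, 0.155%, 0.147% and 22.9% in the same order, and with nanocages against control 3.28%, 1.75%, 1.96% and 25.8%. No paired analysis was possible because each group has 1 library, and for the same reason no replicate could be left out. Depth limits member ratios between the HU libraries to differences beyond about the width of their counting intervals.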
